A study of Homo sapiens with 3 samples.

Results

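Polyadenylated RNA of Hep3B cells kept at 1% oxygen with sodium oxamate was compared with RNA of the same line kept at 1% oxygen alone, gene by gene. Hep3B is an established human hepatoma line that makes many plasma proteins and lacks p53. The pair takes in 2 of the 3 libraries of the study and all genes of its tables: 30765 of the 61533 genes listed had fragments in at least 1 of the 2 libraries. Of these, 13739 had at least 50 fragments in either library and are called measured, and 11878 of the measured genes are protein-coding. The members of the pair were chosen by their labels and not by any measured value.

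The study asked whether lactate bears on cholesterol uptake through the receptor gene SCARB1, per its title. Hep3B cells with no genetic change (labelled WT) were grown in DMEM with 10% serum in 3 conditions with 1 library each. These were 20% oxygen, 1% oxygen in a gas-flushed chamber, and 1% oxygen with oxamate. The design text gives 48 hours in a phrase that can be read for the oxamate culture or for all cultures, and the sources used here give no dose of oxamate. The compound was added as its sodium salt, so effects of oxamate and of the added sodium cannot be told apart, and no culture with oxamate at 20% oxygen is among the samples used here. The libraries held 27412147 fragments for normoxia, 26309340 for hypoxia and 24826365 for hypoxia with oxamate. Genes of the mitochondrial chromosome took 8.46%, 5.80% and 7.21% of them. With 1 library per condition there is no spread between cultures to set a difference against, so no p-value is given. The 95% intervals beside the ratios are exact conditional binomial (Clopper-Pearson) intervals that cover counting error only. In RNA of whole cultures, fewer cells of a kind and less RNA per cell cannot be told apart.

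Oxamate is an analogue of pyruvate that competes with it in lactate dehydrogenase, the enzyme that turns pyruvate into lactate and regenerates the NAD that glycolysis consumes. Under low oxygen the hypoxia-inducible factors (HIF) escape hydroxylation by oxygen-dependent enzymes and raise genes of glucose uptake, glycolysis, vessel growth and matrix. Liver cells respond to shortage of amino acids or to misfolded protein through ATF4, a transcription factor whose translation rises when the initiation factor eIF2 is phosphorylated, and to raised tonicity through NFAT5, which turns on genes that import or make small organic osmolytes.

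Ratios are of fragments scaled to library totals corrected by the trimmed mean of M values, and levels that compare genes are in FPKM, the deposited values per length and library size. A gene was called higher or lower by size alone, when the ratio reached 2 and the larger of the paired counts reached 50 fragments. By this rule 813 of 13739 measured genes were higher with oxamate (5.92%) and 696 were lower (5.07%). Among the protein-coding genes 599 were higher (5.04%) and 569 lower (4.79%), and the median log2 ratio was -0.03 with quartiles at -0.34 and 0.29. Differences of 4-fold or more were found for 171 genes in the higher direction and 103 in the lower, and of 8-fold or more for 55 and 13. The whole interval lay past 2-fold for 491 of the higher and 307 of the lower genes.

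**Figure D1:**
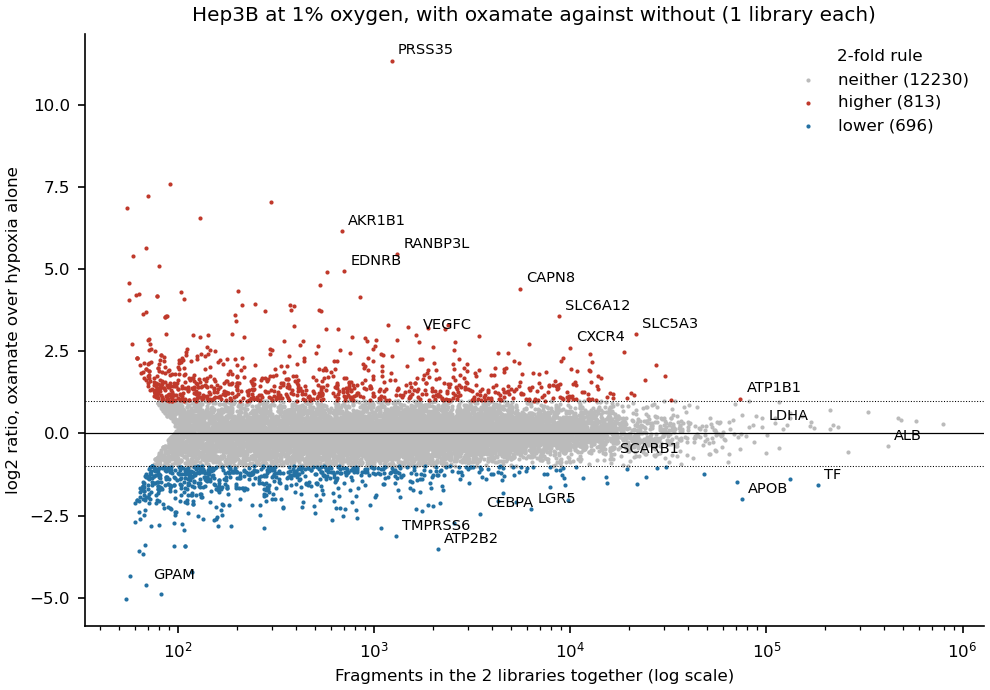
Log2 ratio of each of the 13739 measured genes (vertical axis, oxamate with hypoxia over hypoxia alone, prior of 0.5 fragments) against its fragments in both libraries together (horizontal axis, log scale). Points are genes, 813 higher (red), 696 lower (blue) and the rest grey, and dotted lines mark 2-fold. SLC5A3, SLC6A12 and CAPN8 stand high at large counts, APOB and TF are lower among the most abundant transcripts, and LDHA lies near 0.

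The enzyme that oxamate inhibits showed little difference in its own transcript. LDHA, the gene of the muscle-type subunit, counted 12544 fragments at 20% oxygen, 46682 in hypoxia and 48618 after oxamate was added, or 80.8, 278 and 318 FPKM, a ratio of 1.15 (1.14 to 1.17) between the last 2. The heart-type subunit gene LDHB had 0, 0 and 7 fragments and the testis gene LDHC had 0, 3 and 5, so no ratio is given for either. Nearly all lactate dehydrogenase transcript in these libraries was thus LDHA. The list of lactate and pyruvate handling had 1 of 23 measured members higher and 2 lower, beside 5.04% and 4.79% of protein-coding genes. Its median log2 ratio was 0.14. GPT2, the mitochondrial alanine aminotransferase that links pyruvate and glutamate, was 2.34-fold higher (2.21 to 2.48). PDK2 and PDK4, kinases that switch off pyruvate dehydrogenase, were 3.46-fold (2.71 to 4.47) and 2.48-fold lower (1.88 to 3.31), on 82 and 71 fragments with oxamate, and 39% of the exon bases of PDK2 overlap another gene. The lactate exporter gene SLC16A3 stood at 1.80-fold higher and the HIF-responsive kinase gene PDK1 at 1.66-fold higher, both short of the rule.

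Genes that supply organic osmolytes held some of the widest differences of the comparison, in 3 members only. Of 12 measured members of the list 3 were higher and 0 lower, beside 5.04% and 4.79% of protein-coding genes. AKR1B1 encodes aldose reductase, which makes sorbitol from glucose. Its fragments numbered 2 in normoxia, 10 in hypoxia and 676 after oxamate was added, or 0.0213, 0.0984 and 7.32 FPKM, a 74.8-fold difference (40.4 to 157). It spans 134442356 to 134459284 of chromosome 7 (hg38, minus strand). SLC6A12, on chromosome 12 from 190077 to 214570, encodes the betaine transporter. It went from 738 fragments in hypoxia to 7975 with oxamate, or 4.99 to 59.3 FPKM, and was 11.96-fold higher (11.1 to 12.9), against 565 fragments in normoxia. SLC5A3, on chromosome 21 from 34073578 to 34106260, encodes the sodium-coupled transporter of myo-inositol. It had 1426, 2609 and 19082 fragments, or 4.79, 8.11 and 65.2 FPKM, and was 8.09-fold higher (7.77 to 8.43). In all 3 genes the library with oxamate stood far above both others, which lay closer to each other than to it.

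SLC5A3 lies inside the span of MRPS6, a gene for a mitochondrial ribosomal protein on the same strand, which was 5.42-fold higher (5.00 to 5.88). The sources used here do not say how fragments were divided between them, and 2.36% of the exon bases of SLC5A3 overlap another gene. AKR1B10, an aldo-keto reductase gene close to AKR1B1 on chromosome 7, was 15.9-fold higher (9.59 to 28.3), from 16 to 230 fragments. SLC2A13, which encodes the proton-coupled transporter of myo-inositol, was 4.003-fold higher (3.66 to 4.38).

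The other 9 measured members of the osmolyte list did not pass the rule. The list median was 0.10, and without genes that share exon bases with another gene it was -0.20, with 1 member higher. NFAT5 itself, the transcription factor of the tonicity response, had 2045, 5249 and 5075 fragments and a ratio of 1.07 (1.03 to 1.11). SLC6A6, the taurine transporter gene, stood at 1.20-fold higher (1.16 to 1.24) and PNPLA6, whose product forms the osmolyte glycerophosphocholine, at 1.76-fold higher (1.69 to 1.85). ISYNA1, which makes inositol phosphate from glucose phosphate, stood at 1.71-fold lower (1.60 to 1.84) and CSAD, of taurine synthesis, at 1.43-fold lower (1.23 to 1.65). SLC6A13, a transporter of GABA and taurine beside SLC6A12 on chromosome 12, was at 1.50-fold lower (1.26 to 1.80).

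The sodium pump and the transporters that set cell volume were higher in 6 of 22 measured members and lower in 0 (background 5.04% and 4.79%), with a median of 0.26. The pump exchanges sodium for potassium and holds a supporting beta subunit and an accessory FXYD protein. The beta subunit genes ATP1B1 and ATP1B3 were 2.08-fold (2.05 to 2.11) and 2.79-fold higher (2.66 to 2.93), and the accessory subunit gene FXYD2 was 3.11-fold higher (2.73 to 3.55) at a low level of 6.26 FPKM. SLC12A2, which encodes the cotransporter that brings sodium, potassium and chloride into the cell, went from 6503 to 13896 fragments, 2.36-fold higher (2.30 to 2.44). STK39, a kinase that activates this cotransporter, was 2.68-fold higher (2.48 to 2.91), whereas WNK1, the kinase upstream of it, stood at 1.53-fold lower (1.51 to 1.56). The bicarbonate cotransporter gene SLC4A4 was at 1.71-fold lower (1.64 to 1.77) and the volume-regulated channel subunit gene LRRC8B at 1.69-fold lower. ATP1B1 lay near the threshold, and 4 members passed when libraries were scaled by total fragments. Without genes that share exons, 3 members passed.

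**Figure D2:**
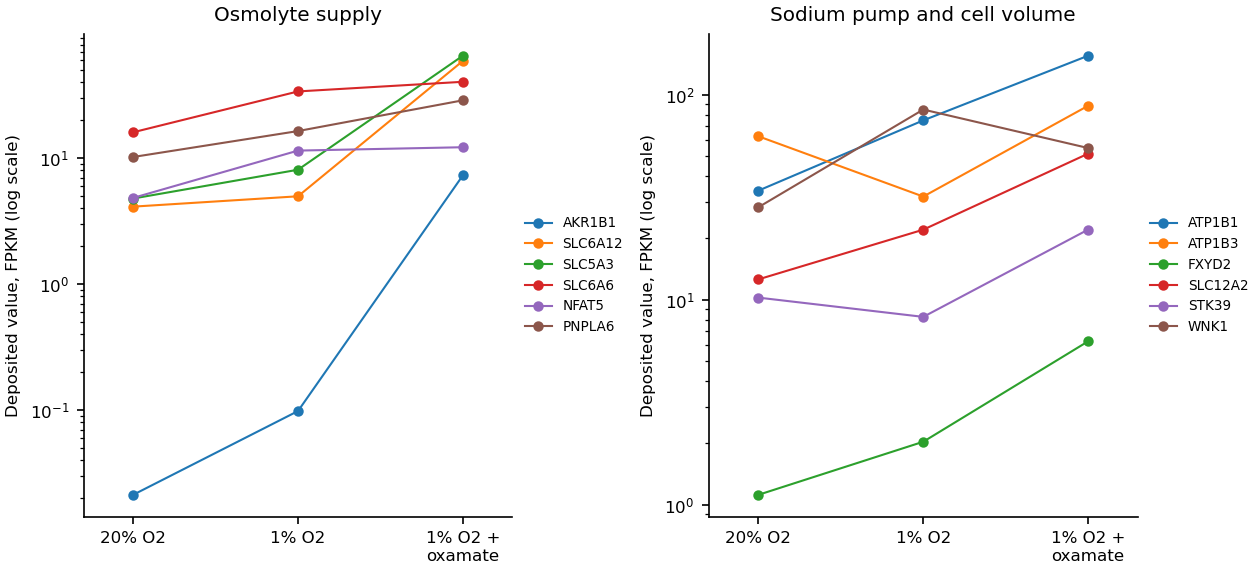
Deposited FPKM (vertical axes, log scale) of 6 osmolyte genes (left) and 6 genes of the sodium pump and cell volume (right) in the 3 conditions, 1 library each, with lines that join the values of a gene. AKR1B1, SLC6A12 and SLC5A3 rise steeply at the last step, from 0.0984 to 7.32, 4.99 to 59.3 and 8.11 to 65.2 FPKM, while NFAT5 stays level and WNK1 goes down.

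Among single protein-coding genes, PRSS35 had the widest difference. It encodes a secreted protein of the serine protease family and counted 12 fragments at 20% oxygen, 0 in hypoxia and 1228 after oxamate was added. With hypoxia set to a floor of 3 fragments it was 453-fold higher, and the lower bound of its interval was 368. EDNRB, a receptor for endothelins, was 31.4-fold higher (20.9 to 49.3), from 24 to 681 fragments. CAPN8, a calcium-dependent protease gene, was 21.2-fold higher (18.8 to 24.0) at a much larger count, from 274 to 5248. The urokinase gene PLAU was 21.4-fold higher (11.4 to 45.2), but on 10 fragments in hypoxia and with 31% of its exon bases shared. RANBP3L was 44.3-fold higher (31.2 to 65.0), PTX3, a secreted pattern-recognition protein, 18.1-fold (13.6 to 24.7) and GDNF, a neurotrophic factor, 9.87-fold (8.63 to 11.3). Among these genes PLAU stood out for its normoxia value, since it had 119 fragments there and 10 in hypoxia, while RANBP3L and EDNRB were low in both libraries without oxamate.

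In the lower direction ATP2B2, which encodes a calcium pump of the plasma membrane, had the protein-coding ratio whose interval lay farthest from 1. It fell 11.5-fold (9.75 to 13.6), from 1958 to 154 fragments. PRR15L was 20.4-fold lower (8.50 to 64.1) and SPTLC3, a subunit of the enzyme that starts ceramide synthesis, 11.3-fold lower (5.52 to 26.9), on 5 and 8 fragments with oxamate. TMEM200A was 6.67-fold lower (5.91 to 7.54). SLCO2A1, a prostaglandin transporter gene, was 5.15-fold lower (4.51 to 5.89), with 201, 1486 and 261 fragments, so that its value with oxamate lay near that of normoxia. ANGPTL8, a secreted regulator of lipoprotein lipase, was 5.70-fold lower (4.58 to 7.15) and the alcohol dehydrogenase gene ADH6 7.10-fold lower (4.50 to 11.8).

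Glycolysis was higher in 6 of 22 measured members and lower in 0, beside 5.04% and 4.79% of protein-coding genes, with a median of 0.31. PFKP, the platelet-type isozyme of phosphofructokinase, had 7, 40 and 351 fragments and was 9.71-fold higher (6.99 to 13.8). ENO2, the neuronal isozyme of enolase, had 144, 1698 and 7463 fragments, or 1.31, 14.3 and 68.9 FPKM, and was 4.86-fold higher (4.61 to 5.13). Both genes stood lowest in normoxia and highest with oxamate. HKDC1, a hexokinase family gene, was 2.89-fold higher (2.63 to 3.17) and SLC2A1, the glucose transporter GLUT1, 2.59-fold higher (2.45 to 2.74), and ALDOA and PFKFB4 also passed. The 4 lowest members did not pass: the liver pyruvate kinase gene PKLR stood at 1.98-fold lower (1.44 to 2.75), which scaling by total fragments takes past the rule, the liver phosphofructokinase gene PFKL at 1.21-fold lower (1.16 to 1.25), PFKM at 1.30-fold lower and ENO3 at 1.26-fold lower (1.19 to 1.32). Without genes that share exons with another gene, 1 glycolysis gene was higher and the median was 0.15.

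The promoters of PFKP and ENO2 are shown because both genes passed the rule and hold ACGTG, the core of the hypoxia response element, before an annotated start. A gene can have several annotated starts, and the first window of a gene that held the match was printed. The deposited gene spans begin at 3066333 for PFKP and 6913745 for ENO2, upstream of the windows shown. Capitals mark the match. The 250 bases before the start chosen in this way come from RefSeq (GRCh38.p14, plus strand), chr10:3068939-3069188 for PFKP and chr12:6914330-6914579 for ENO2. The match begins 139 and 118 bases before that start.
PFKP: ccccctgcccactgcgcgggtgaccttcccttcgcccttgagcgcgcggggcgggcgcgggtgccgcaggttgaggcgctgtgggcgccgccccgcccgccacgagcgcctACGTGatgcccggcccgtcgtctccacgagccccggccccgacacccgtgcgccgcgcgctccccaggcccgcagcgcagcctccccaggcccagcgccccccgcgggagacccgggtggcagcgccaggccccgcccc
ENO2: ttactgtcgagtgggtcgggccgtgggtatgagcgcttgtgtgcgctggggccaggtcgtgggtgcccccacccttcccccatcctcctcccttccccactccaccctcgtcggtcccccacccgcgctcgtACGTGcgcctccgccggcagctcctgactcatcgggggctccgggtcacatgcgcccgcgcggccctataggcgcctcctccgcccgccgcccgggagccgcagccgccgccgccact
The letters ACGTG were searched on both strands, and they also lie within CACGTG, the E-box that MYC, MAX and the clock factors bind. In windows from 250 bases before to 50 after the start, 39 of the 74 windows of the glycolysis and HIF target lists held them (32 of 50 genes matched), against 21.4% of all 35116 windows and 25.4% of those of measured protein-coding genes. Among the 23 windows of list members that were higher with oxamate, 11 held them. A match describes the letters and is not evidence of binding.

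Targets of HIF outside glycolysis were higher again on top of hypoxia, in 15 of 40 measured members against 5.04% of protein-coding genes, and lower in 1. Their median log2 ratio was 0.69. The same list had a median of 1.59 in hypoxia over normoxia, a step that shares the hypoxia library, so the pair of medians is given side by side only. CXCR4, a chemokine receptor gene, had 137, 1530 and 8441 fragments, or 2.41, 24.9 and 151 FPKM, and was 6.10-fold higher (5.78 to 6.45). PPFIA4, a scaffold gene of the liprin family, was 4.85-fold higher (4.29 to 5.49). The secreted glycoprotein gene STC2 was 4.49-fold higher (4.30 to 4.69), and LOXL2, which crosslinks collagen, 4.02-fold higher (3.73 to 4.33), with 10, 892 and 3239 fragments. Without genes that share exons, 8 members of the list were higher. CXCR4, PPFIA4, STC2 and LOXL2 were each lowest at 20% oxygen and highest with oxamate. INSIG2, which holds back sterol synthesis, was 3.82-fold higher (3.66 to 3.98), the lipolysis inhibitor gene HILPDA 2.94-fold higher (2.71 to 3.20) and the mitophagy receptor gene BNIP3 2.16-fold higher (2.07 to 2.26).

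Not every HIF target followed. EPO, the erythropoietin gene for which Hep3B cells are often used, had 21, 180 and 93 fragments and stood at 1.75-fold lower (1.35 to 2.27). PLIN2, the main lipid droplet coat gene of liver, stood at 1.38-fold lower (1.36 to 1.40). CA12, a carbonic anhydrase gene, stood at 1.71-fold lower (1.55 to 1.88). It had 1976, 1221 and 646 fragments, so it was not higher in hypoxia than in normoxia either. Other widely used hypoxia markers differed little: CA9 stood at 1.26-fold higher (1.21 to 1.31) and NDRG1 at 1.21-fold higher (1.19 to 1.24), while VEGFA stood at 1.75-fold (1.70 to 1.79). The glucose transporter gene SLC2A3 was the member called lower, by 5.80-fold (3.46 to 10.3) on 17 fragments. Its value is uncertain, since its near copy SLC2A14 had 72, 566 and 105 fragments and was 4.87-fold lower (3.95 to 6.06). The HIF subunits and oxygen sensors had 0 of 11 members past the rule in either direction, with HIF1A at 1.58-fold higher (1.53 to 1.64), EPAS1, which encodes HIF-2 alpha, at 1.14-fold higher (1.11 to 1.18) and EGLN1, the main HIF prolyl hydroxylase, at 1.81-fold higher (1.70 to 1.93). VHL stood at 1.00-fold (0.948 to 1.06).

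**Figure D3:**
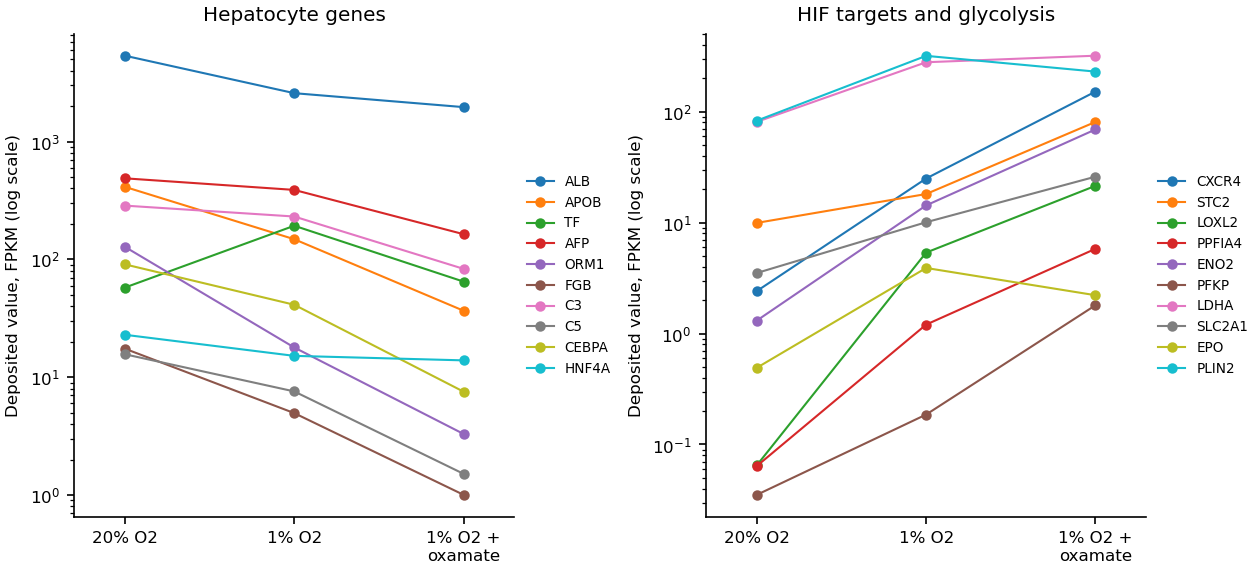
Deposited FPKM (vertical axes, log scale) of 10 hepatocyte genes (left) and 10 HIF target and glycolysis genes (right) in the 3 conditions, 1 library each, with lines that join the values of a gene. On the left APOB, ORM1, FGB, C5 and CEBPA step down at both changes and TF goes up and back, from 57.7 to 193 and 64.8 FPKM. On the right CXCR4, ENO2 and PFKP step up at both changes, while EPO and PLIN2 turn down with oxamate.

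Targets of ATF4 were higher with oxamate in 6 of 28 measured members and lower in 0, beside 5.04% and 4.79% of protein-coding genes. Their median was 0.66 and 23 of 28 lay above 0, where 47.8% of measured protein-coding genes were above 0. In hypoxia over normoxia, a step that shares the hypoxia library, the median of the same list was -0.97. SLC7A11, which imports cystine in exchange for glutamate, had 1010, 769 and 2501 fragments and was 3.60-fold higher (3.32 to 3.91). TRIB3, a pseudokinase gene that feeds back on ATF4, had 5906, 2591 and 5933 fragments and was 2.53-fold higher (2.42 to 2.65), which placed it level with normoxia at 71.3 against 69.8 FPKM. CHAC1, which degrades glutathione, was 2.26-fold higher (1.79 to 2.87), from 109 to 223 fragments. CEBPB, a leucine zipper factor gene, was 2.20-fold higher (1.88 to 2.58). SLC3A2, the heavy chain partner of SLC7A11, and MTHFD2, of mitochondrial folate metabolism, were 2.07-fold (1.94 to 2.21) and 2.02-fold higher (1.89 to 2.16). Of the 6, 2 had the whole interval past 2-fold, 2 passed on log2(FPKM + 1) and 3 were left without genes that share exons. ATF4 itself had 11143, 7589 and 12204 fragments and stood at 1.78-fold higher (1.73 to 1.83). On the other side DDIT4, an inhibitor of mTOR complex activity that HIF also raises, stood at 1.38-fold lower (1.34 to 1.42), PSPH, of serine synthesis, at 1.41-fold lower and CBS, of the transsulfuration pathway, at 1.56-fold lower (1.42 to 1.71).

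The promoter of CHAC1 is shown because it is the member past the rule that holds TGATGNAA, the composite element bound by ATF4 with a C/EBP factor, before an annotated start. The start was chosen as for PFKP and ENO2, and the deposited gene span begins at 40952962, upstream of the window shown. Capitals mark the match, which reads on the opposite strand and begins 209 bases before the start chosen. The bases come from RefSeq (GRCh38.p14, plus strand, chr15:40953221-40953470).
CHAC1: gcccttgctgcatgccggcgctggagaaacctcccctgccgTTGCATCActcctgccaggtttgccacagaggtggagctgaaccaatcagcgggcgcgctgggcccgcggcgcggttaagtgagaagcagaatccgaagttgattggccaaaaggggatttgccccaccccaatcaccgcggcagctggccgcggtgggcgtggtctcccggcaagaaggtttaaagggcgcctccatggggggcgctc
The motif was searched on both strands, and C/EBP sites share part of it. Of 38 windows of the list 6 held it (6 of 23 genes matched), against 3.62% of all windows and 1.99% of those of measured protein-coding genes.

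Of 13 kinases and factors of the integrated stress response, PPP1R15B, a subunit that directs dephosphorylation of eIF2, was 2.02-fold higher (1.94 to 2.11), at the threshold. The amino acid sensing kinase gene EIF2AK4 stood at 1.68-fold lower (1.49 to 1.90) and IMPACT, an inhibitor of its activation, at 1.90-fold lower (1.66 to 2.18). The endoplasmic reticulum kinase gene EIF2AK3 stood at 1.19-fold higher. Of 20 cytosolic aminoacyl-tRNA synthetase genes, several of which ATF4 is known to raise, 0 passed in either direction (median -0.08), although CARS1 stood at 1.67-fold and GARS1 at 1.59-fold higher. Of 20 amino acid transporters 3 were higher and 3 lower (background 5.04% and 4.79%). SLC6A9, the glycine transporter, was 2.90-fold higher (2.28 to 3.71) and SLC7A5, the leucine transporter, 2.03-fold higher (1.91 to 2.16), whereas SLC7A2, a transporter of cationic amino acids in liver, was 3.12-fold lower (2.96 to 3.30) and SLC43A2 3.02-fold lower (2.47 to 3.73). The glutamine transporter gene SLC38A2 stood at 1.94-fold higher (1.92 to 1.97) and had the highest level of the transporters named here, 450 FPKM with oxamate against 233 in hypoxia.

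Of 24 genes of endoplasmic reticulum chaperones and the unfolded protein response 3 were higher and 1 lower (background 5.04% and 4.79%, median -0.17). The sensor and degradation genes ERN1, EDEM1 and DNAJB9 were 2.27-fold (2.12 to 2.44), 2.11-fold (2.02 to 2.20) and 2.39-fold higher (2.20 to 2.60). The folding chaperone SDF2L1 was 2.89-fold lower (2.51 to 3.32), and PDIA4 and HSP90B1 stood at 1.93-fold (1.87 to 1.99) and 1.81-fold lower (1.77 to 1.85). Enzymes of serine and folate metabolism had 1 of 16 higher and 2 lower, the latter being GLDC and GCSH of the glycine cleavage system, 2.36-fold (2.20 to 2.54) and 2.38-fold lower (1.85 to 3.10).

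**Figure D4:**
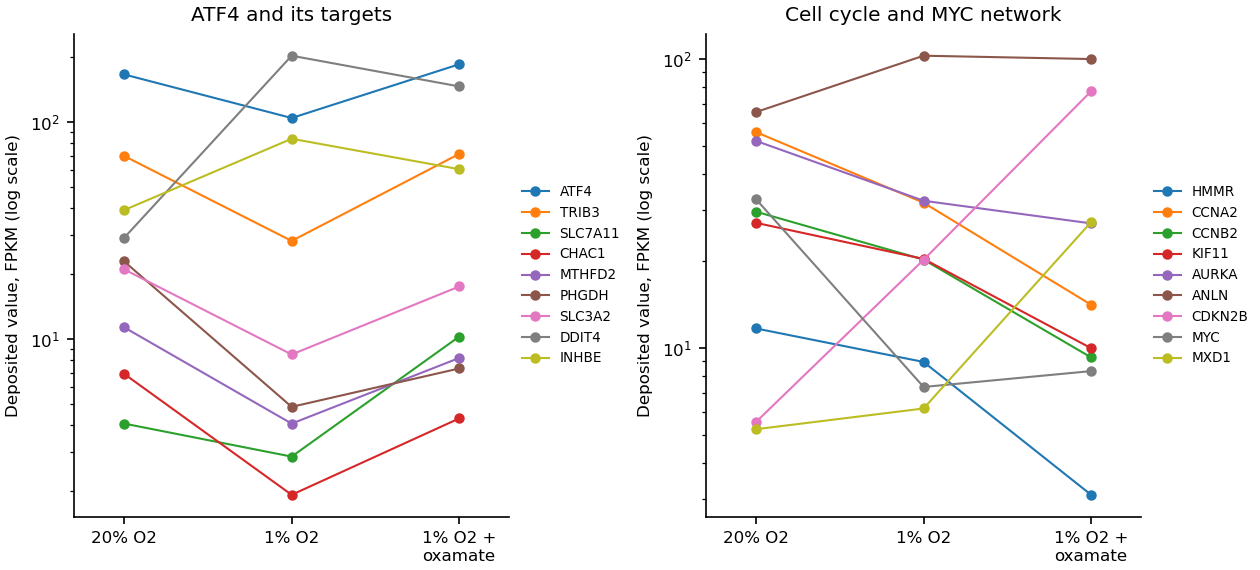
Deposited FPKM (vertical axes, log scale) of ATF4 and 8 of its targets (left) and of 9 genes of the cell cycle and the MYC network (right) in the 3 conditions, 1 library each, with lines that join the values of a gene. TRIB3, CHAC1 and SLC3A2 dip in hypoxia and stand higher with oxamate, DDIT4 and INHBE do the reverse, HMMR, CCNA2 and CCNB2 go down at the last step and CDKN2B and MXD1 go up.

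Of 19 genes of NRF2 targets and NADPH supply 4 were higher and 1 lower (median 0.16), beside 5.04% and 4.79% of protein-coding genes. The widest was AKR1B10, described above, at 15.9-fold higher on 16 and 230 fragments. UGDH, which makes UDP-glucuronate, was 2.003-fold higher (1.91 to 2.10), at the threshold. ME1, which makes NADPH from malate, was 3.89-fold higher (3.54 to 4.28) and GPX2, a glutathione peroxidase gene, 2.40-fold higher (2.24 to 2.57), whereas NQO1, a widely used NRF2 marker, stood at 1.56-fold lower (1.40 to 1.75) and HMOX1, heme oxygenase, was 2.004-fold lower (1.84 to 2.19), at the threshold. Of 18 heat shock genes, 3 were higher and 0 lower. CRYAB, a small heat shock protein that is also known to respond to tonicity, was 8.35-fold higher (5.33 to 13.7) on 22 and 166 fragments. HSPB8, another small heat shock protein, was 3.81-fold higher (3.26 to 4.47) and HSPH1 2.16-fold higher (2.09 to 2.24), while the mitochondrial chaperones HSPD1 and HSPE1 stood at 1.36-fold and 1.38-fold lower.

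All 34 measured genes of mitosis and chromosome segregation had a log2 ratio below 0, with a median of -0.76, and 5 of them passed the rule in the lower direction (background 4.79%). HMMR, a spindle-associated protein gene, had 1180, 977 and 308 fragments and was 2.87-fold lower (2.52 to 3.27). CCNA2 and CCNB2, cyclins of the passage into mitosis, were 2.24-fold (2.08 to 2.42) and 2.17-fold lower (1.98 to 2.38). The spindle motor gene KIF11 was 2.02-fold lower (1.90 to 2.16), at the threshold, as was the kinase gene AURKB at 2.02-fold. At the other end of the list the cytokinesis genes ANLN and ECT2 stood at 1.02-fold lower each, with intervals that include 1, and AURKA at 1.19-fold lower. Of the 5 calls, 2 had the whole interval past 2-fold, and 3 members passed on log2(FPKM + 1) or without genes that share exons.

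The promoters of HMMR and CCNB2 are shown because both genes passed the rule and hold TTTGAA, the core of the cell cycle homology region, close to an annotated start. The start was chosen as for PFKP and ENO2, and the deposited span of HMMR begins at 163460203, upstream of the window shown. Capitals mark the matches, which begin 28 and 22 bases before the start in HMMR and 29 bases before it in CCNB2. The bases come from RefSeq (GRCh38.p14, plus strand), chr5:163460382-163460631 for HMMR and chr15:59104896-59105145 for CCNB2.
HMMR: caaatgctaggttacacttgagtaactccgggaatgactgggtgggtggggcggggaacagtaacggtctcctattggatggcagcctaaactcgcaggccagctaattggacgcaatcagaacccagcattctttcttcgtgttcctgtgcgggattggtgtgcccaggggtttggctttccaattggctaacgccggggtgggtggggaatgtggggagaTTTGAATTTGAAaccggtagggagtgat
CCNB2: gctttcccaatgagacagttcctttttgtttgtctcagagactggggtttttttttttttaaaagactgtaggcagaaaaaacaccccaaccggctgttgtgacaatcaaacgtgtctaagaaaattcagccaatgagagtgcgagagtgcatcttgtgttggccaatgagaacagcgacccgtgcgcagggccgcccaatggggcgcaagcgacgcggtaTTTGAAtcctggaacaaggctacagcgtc
The letters were searched on both strands. Of 36 windows of the mitosis list 24 held them (21 of 29 genes matched), against 15.2% of all windows and 10.4% of those of measured protein-coding genes. Of the 6 windows of the members that were lower, 3 held them.

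Of 37 genes of DNA replication 3 were lower and 0 higher (background 4.79% and 5.04%, median -0.41). The 3 were GINS1, GINS2 and GINS4, subunits of the replicative helicase, at 2.23-fold (2.03 to 2.45), 2.19-fold (1.88 to 2.56) and 2.11-fold lower (1.85 to 2.41). The polymerase gene POLE stood at 1.02-fold higher. Among inhibitors of the G1 kinases, CDKN2B, which encodes p15, had 570, 2244 and 7822 fragments, or 5.54, 20.2 and 77.3 FPKM, and was 3.86-fold higher (3.68 to 4.04). CDKN2D was 2.17-fold higher (1.69 to 2.79), CDKN1A, which encodes p21, stood at 1.31-fold higher (1.14 to 1.52), and CCND2 was 3.06-fold lower (1.79 to 5.51) on 18 fragments. MXD1, an antagonist of MYC, was 4.45-fold higher (4.16 to 4.76), with 854, 1089 and 4377 fragments, whereas MYC had 933 and 963 fragments in the last 2 libraries and a ratio of 1.14 (1.04 to 1.25). ODC1, a MYC target that makes polyamines, was 3.53-fold higher (3.32 to 3.75). The other 27 measured members of the list of MYC and ribosome biogenesis passed in neither direction, and its median was -0.18.

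Of 43 measured cytosolic ribosomal protein genes 41 lay above 0, with a median of 0.23 and 0 passed the rule, the widest being RPL14 at 1.39-fold higher. The 13 protein-coding genes of the mitochondrial chromosome had a median of 0.40 with 12 above 0 and 0 past the rule. MT-ND3 stood at 1.69-fold higher (1.65 to 1.73), MT-CO2 at 1.57-fold higher (1.56 to 1.58) and MT-ND6, the protein gene of the light strand, at 1.02-fold lower. Nuclear subunits of oxidative phosphorylation had a median of -0.12, with 1 of 42 lower (background 4.79%), ATP5MC1 at 2.04-fold (1.73 to 2.42). The tricarboxylic acid cycle had 0 of 21 past the rule and a median of -0.14.

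Plasma proteins made by hepatocytes were lower in 11 of 26 measured members and higher in 0 (background 4.79% and 5.04%), with a median of -0.90. Without genes that share exons, 6 were lower. Summed over the list they stood at 39650 CPM in normoxia, 27300 in hypoxia and 16580 with oxamate. APOB, the structural protein of low-density lipoprotein, had 157506, 61208 and 13756 fragments, or 413, 148 and 36.7 FPKM, and was 4.02-fold lower with oxamate (3.95 to 4.10). TF, the transferrin gene, had 38641, 139877 and 42672 fragments and was 2.96-fold lower (2.93 to 3.00), so that the library in hypoxia alone stood above both others. The acute phase genes ORM1 and ORM2 were 5.39-fold (4.19 to 7.01) and 4.72-fold lower (3.64 to 6.19). They are near-identical copies, so the division of fragments between them is uncertain, and both were lower. APOC3, an inhibitor of triglyceride clearance, was 4.28-fold lower (3.34 to 5.56) and the fetal albumin gene AFP 2.36-fold lower (2.31 to 2.41). ALB, albumin, stood at 1.30-fold lower (1.30 to 1.31) and remained the protein-coding nuclear gene with the highest FPKM, 1963 with oxamate. Some members did not decrease: GC, the vitamin D carrier, stood at 1.89-fold higher (1.83 to 1.94), AMBP at 1.11-fold and CP, ceruloplasmin, at 1.06-fold higher.

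Coagulation, fibrinolysis and complement genes were lower in 16 of 26 measured members, beside 4.79% of protein-coding genes, and higher in 1, with a median of -1.19. FGB, which encodes the beta chain of fibrinogen, had 1965, 603 and 111 fragments and was 4.91-fold lower (4.004 to 6.07). The terminal complement genes C5 and C6 were 4.97-fold (4.35 to 5.72) and 4.04-fold lower (3.02 to 5.49), and MBL2, which starts the lectin pathway, was 6.90-fold lower (3.67 to 14.4) on 84 and 11 fragments. In the opposite direction MASP1, a protease of the same lectin pathway, had 2277, 5600 and 21641 fragments and was 4.28-fold higher (4.15 to 4.40). Coagulation factor V (F5) stood at 1.05-fold lower, MASP2 at 1.01-fold higher and C2 at 1.23-fold higher. On log2(FPKM + 1), a scale that shrinks low genes, 9 members were lower and the median was -0.73.

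The transcription factors of the hepatocyte mostly did not pass the rule, 1 of 29 higher and 1 lower (background 5.04% and 4.79%) with a median of -0.12. CEBPA, a master factor of liver and fat cells, had 6073, 2981 and 496 fragments, or 90.8, 41.2 and 7.54 FPKM, and was 5.43-fold lower (4.94 to 5.99), and other genes overlap 43% of its exon bases. HNF4A stood at 1.08-fold lower (1.04 to 1.14), FOXA1 at 1.83-fold lower (1.69 to 1.98), GATA4 at 1.80-fold higher (1.66 to 1.94) and NR2F1 at 1.95-fold higher. RORA, a nuclear receptor that HIF is known to raise, had 64, 1019 and 3679 fragments and was 3.99-fold higher (3.73 to 4.29). CEBPA and CEBPB, members of the same family, thus differed in opposite directions.

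Enzymes of the urea cycle and amino acid breakdown were lower in 6 of 16 measured members and higher in 2 (background 4.79% and 5.04%), and 3 were lower without genes that share exons. HAL, which degrades histidine, was 4.36-fold lower (3.89 to 4.89), and FAH and HPD of tyrosine breakdown 3.87-fold (3.30 to 4.55) and 2.27-fold lower (1.93 to 2.69). TAT, tyrosine aminotransferase, was 2.51-fold higher (1.495 to 4.36), from 22 to 50 fragments. Genes of drug and bile acid metabolism were mostly too low to measure (11 of 29). The estrogen sulfotransferase gene SULT1E1 was 14.0-fold lower (5.21 to 53.03) on 4 fragments, and CYP1A1 was 2.97-fold higher (2.52 to 3.51). Among genes of fetal liver and liver tumours, the imprinted gene PEG10 was 2.51-fold lower (2.44 to 2.59), and SOX9 and the osteopontin gene SPP1 were 2.40-fold (2.31 to 2.50) and 3.08-fold higher (2.33 to 4.11).

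Markers of cell types were read in the libraries, which can show a liver type but cannot identify the line. All 12 hepatocyte and hepatoma markers were detected in both libraries, 5 of them lower with oxamate and 0 higher (background 4.79% and 5.04%). ALB, APOB, TF, AFP and FGB among them were also reported above, so these counts are not separate results. The 12 markers summed to 35180, 23350 and 14230 CPM. Markers of other cell types stood beside these changes as follows. Of 12 blood cell markers 2 were measured, LYZ at 1.89-fold higher (34% of exon bases shared) and ITGAM 2.38-fold lower. Hemoglobin genes HBB and HBA1, CD3E, MS4A1 and CD163 were at 0 in both libraries, and the list summed to 34.7 CPM in hypoxia and 61.6 with oxamate. Of 10 endothelial markers 2 were measured, PECAM1 with 33, 230 and 499 fragments and TIE1 with 1, 11 and 62, both higher with oxamate, at 2.40-fold and 6.24-fold. KDR, CDH5, ERG and EMCN were at 0 in both libraries, and the list summed to 8.93 and 23.5 CPM. Stellate cell markers summed to 43.2 and 36.9 CPM, with ACTA2, DCN and THY1 at 0. Of the measured members PDGFRB was 3.60-fold lower. COL1A1 went from 130 to 51 fragments, PDGFRA from 206 to 161 and LUM, in the other direction, from 412 to 580. Cholangiocyte markers summed to 890 and 1052 CPM, with SOX9 and SPP1 higher and KRT19 and EPCAM at 1.05-fold and 1.04-fold lower. Their part in the results on hepatocyte genes was not tested.

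Of 12 measured genes of cholesterol uptake 0 were higher and 1 lower (background 5.04% and 4.79%, median -0.30). SCARB1, the receptor named in the title, had 4075, 10910 and 5698 fragments and stood at 1.73-fold lower with oxamate (1.68 to 1.79), short of the rule, and PDZK1, which anchors the receptor, at 1.97-fold lower (1.86 to 2.10). VLDLR, a receptor of particles that carry apolipoprotein E, stood on the other side at 1.98-fold higher (1.80 to 2.17). CD36, a fatty acid and lipoprotein receptor gene, was 5.67-fold lower (3.98 to 8.31), from 226 to 36 fragments. Of 26 genes of cholesterol synthesis and its control 5 were higher and 0 lower (background 5.04% and 4.79%, median 0.41). Of these calls, 3 had the whole interval past 2-fold. Among the genes of control, beside INSIG2 above, its relative INSIG1 was 2.88-fold higher (2.65 to 3.12). The late enzymes SC5D and MSMO1 were 2.18-fold (2.07 to 2.29) and 2.10-fold higher (1.98 to 2.22). The list median in hypoxia over normoxia, which shares the hypoxia library, was -1.35. For efflux, ABCA1 was 2.49-fold higher (2.32 to 2.67) and PLTP, which remodels high-density lipoprotein, 2.25-fold lower (1.65 to 3.12).

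In fatty acid metabolism GPAM, which starts glycerolipid synthesis in mitochondria, counted 1474 fragments at 20% oxygen, 67 in hypoxia and 2 after oxamate was added, a ratio of 30.3-fold lower whose interval runs from 8.06 to 255. ACACB, which makes the malonyl-CoA that restrains fatty acid entry into mitochondria, was 3.11-fold lower (2.01 to 4.97), and ACSS2, which makes acetyl-CoA from acetate, was 2.43-fold higher (2.23 to 2.66). SCD, the most abundant gene of the list, stood at 1.37-fold higher (1.36 to 1.39). Fatty acid oxidation and ketone genes were lower in 4 of 26 measured members and higher in 0 (background 4.79% and 5.04%), with a median of -0.41, and 1 passed on log2(FPKM + 1). Among them was EHHADH at 2.77-fold (2.31 to 3.34). Of 13 measured genes of lipid droplet coat and lipolysis 3 were higher and 1 lower (background 5.04% and 4.79%, median -0.05), with log2 ratios from -1.233 to 2.305. The lower gene was the coat gene PLIN4, at 2.35-fold (2.19 to 2.52).

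Of 20 measured genes of iron handling 5 were lower and 1 higher (background 4.79% and 5.04%). TMPRSS6, whose protease cleaves hemojuvelin, had 786, 1172 and 122 fragments and was 8.68-fold lower (7.20 to 10.6). HJV, hemojuvelin itself, was 7.13-fold lower (4.35 to 12.4) and TFR2, the iron-sensing transferrin receptor, 3.38-fold lower (2.26 to 5.20). BMP6, the ligand that feeds this pathway, was 7.05-fold higher (5.35 to 9.44), with 45, 59 and 376 fragments, while ID1, a target of BMP signals, was 2.37-fold lower (2.25 to 2.50). Hepcidin (HAMP) had 6 fragments in each of the libraries compared, too few for a ratio. TFRC, the general transferrin receptor, stood at 1.57-fold higher (1.54 to 1.60). With a minimum of 200 fragments 3 of the list were lower. Metallothionein MT2A was 4.60-fold higher (3.93 to 5.42) and the metal importer genes SLC39A8 and SLC39A4 were 2.77-fold higher (2.38 to 3.24) and 3.69-fold lower (2.32 to 6.11).

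The background for the counts of growth factor and immediate early genes is 5.04% higher and 4.79% lower. VEGFC, a lymphatic growth factor, had 465, 200 and 1443 fragments and was 7.98-fold higher (6.88 to 9.30), PGF, the placental growth factor, 3.75-fold higher (3.44 to 4.09) and the receptor gene FGFR1 3.12-fold higher (2.75 to 3.54). EDN1, the endothelin ligand of the EDNRB receptor above, was 2.72-fold higher (2.36 to 3.14). In this list 8 of 33 were higher (5 on log2(FPKM + 1)) and 1 lower, IGFALS, the liver partner of circulating insulin-like growth factor, at 3.03-fold (1.74 to 5.56). Of 22 immediate early genes 8 were higher and 0 lower (median 0.69). The phosphatases DUSP5 and DUSP4, which switch off kinase signalling, were 6.97-fold (6.06 to 8.03) and 3.999-fold higher (3.40 to 4.72), and the repressor-type leucine zipper gene MAFF 3.58-fold higher (3.22 to 3.99). FOS stood at 1.63-fold lower (1.50 to 1.77), JUNB at 1.37-fold lower (1.32 to 1.41) and EGR1 at 1.05-fold lower.

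The combined list of Hippo and Wnt targets had 7 of 19 higher and 3 lower, beside 5.04% and 4.79% of protein-coding genes, and 3 higher without genes that share exons. CCN1 and CCN2, secreted matricellular proteins, were 4.65-fold (4.41 to 4.91) and 3.77-fold higher (3.61 to 3.95), and ANKRD1, the third standard target of YAP, had 2815, 807 and 3991 fragments and was 5.47-fold higher (5.07 to 5.91). NKD1 and LGR5, feedback genes of Wnt, were 7.375-fold (6.09 to 8.999) and 4.95-fold lower (4.62 to 5.30). LGR5 had 1457, 5361 and 980 fragments and NKD1 98, 971 and 119, so both stood far above the other libraries in hypoxia alone. AXIN2, the most general Wnt feedback gene, stood at 1.50-fold higher on 76 fragments. NF-kB and cytokine genes had 6 of 18 higher and 0 lower (background 5.04% and 4.79%), with the chemokine gene CCL20 at 3.20-fold (3.08 to 3.33), from 3674 to 10633 fragments, the cytokine gene IL11 at 3.90-fold (2.97 to 5.17) and BIRC3, an inhibitor of cell death, at 2.89-fold higher (2.61 to 3.21). CXCL5 stood at 1.82-fold lower (1.69 to 1.97). Of the matrix and mesenchymal list, 3 of 28 were higher and 2 lower, COL1A1 at 2.30-fold (1.66 to 3.25) and TGFBI at 2.09-fold (2.04 to 2.15).

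**Figure D5:**
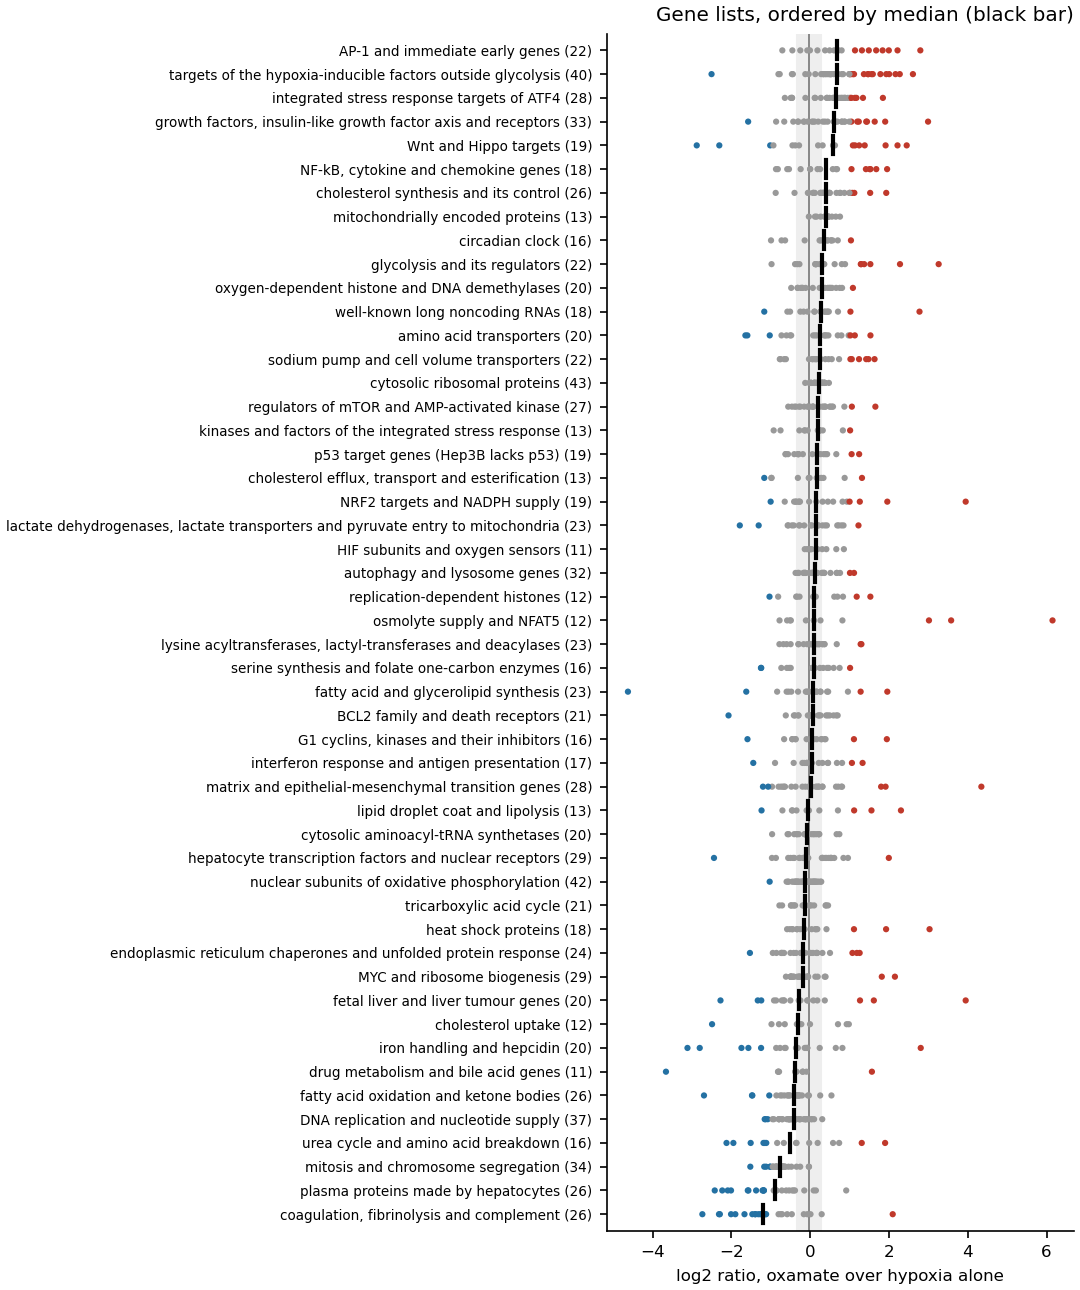
Log2 ratio (horizontal axis, oxamate with hypoxia over hypoxia alone) of the measured members of each gene list with 10 or more of them, cell type markers left out, 1 row per list with the number measured in brackets. Points are genes, red or blue where they passed the 2-fold rule and grey where not, the black bar is the list median, the vertical line the median of all measured protein-coding genes, and the shaded band spans the quartiles of all measured protein-coding genes, -0.34 to 0.29. The lists of immediate early genes (median 0.69), HIF targets (0.69) and ATF4 targets (0.66) head the order and those of mitosis (-0.76), plasma proteins (-0.90) and coagulation and complement (-1.19) close it.

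Other lists lay near the middle of the order, beside a background of 5.04% higher and 4.79% lower among protein-coding genes. With at most 2 members called in either direction, the counts below set no list apart from that background. Autophagy and lysosome genes had 2 of 32 higher and 0 lower (median 0.13), and the 2 were BNIP3 and BNIP3L. Of the regulators of mTOR, 2 of 27 were higher, RRAGD and RRAGC, GTPases that tether mTOR to lysosomes, at 3.19-fold (2.12 to 4.89) and 2.08-fold (1.84 to 2.37). Of the BCL2 family and death receptors 0 of 21 were higher and 1 lower, BIK, a promoter of cell death, at 4.28-fold (2.59 to 7.44) on 19 fragments. Enzymes that write and erase lysine acylation had 2 of 23 higher and 0 lower: KAT2B, an acetyltransferase gene, at 2.47-fold (2.29 to 2.65), and ACSS2 as above. EP300, the acetyltransferase also known for lactylation, stood at 1.24-fold higher (1.19 to 1.28). Oxygen-dependent demethylases had 1 of 20 higher, JMJD6 at 2.12-fold (1.99 to 2.27).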

How the data were processed

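RNA of Hep3B cells was enriched for poly(A), primed with random hexamers and sequenced as 1 library for each of 3 conditions, per the labels' protocols. The sources used here do not say whether a library came from 1 culture or pooled cultures. The hg38 build, edgeR 3.22.5, featureCounts 1.5.0-p3, StringTie 1.3.3b and HISAT2 2.0.5 are what the authors used per the submitters' processing notes, which list them without roles or order. The authors deposited 1 table per library with 61533 genes. Their file headers name only the sample, so the unit of the deposited values, FPKM (fragments scaled to gene length and library size), was inferred from the values: multiplied by gene length and divided by the smallest step, they gave whole numbers within 0.01. These recovered fragments were used in place of the values wherever a ratio or count is given. Strand use in counting is not given in the sources used here, so overlapping genes cannot be told apart, and no source used here names molecular identifiers.

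Genes that summed to 10 fragments or more were kept (21987). Scaling used trimmed means of M values (30% of ratios and 5% of levels trimmed at each end). Ratios have exact conditional 95% intervals, and list medians use log2 ratios with a prior of 0.5 fragments. With 1 library per condition no test across samples was possible, and no test of gene lists was run. A difference was called at 2-fold if the larger count reached 50 fragments, and a floor of 3 fragments stood for 0. Gene types came from GENCODE 29 (58356 genes matched), promoters from RefSeq. The computation used python 3.11.15, numpy 2.4.6, scipy 1.17.1, pandas 2.3.3 and matplotlib 3.10.9, and was tested on simulated data.

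The comparison, the 56 gene lists and the alternatives were chosen with earlier results of these data known. Genes were named by a rule: the lactate dehydrogenase genes and SCARB1; all members of the lists of stress sensors, HIF machinery and osmolytes; the 15 coding genes in each direction with 100 fragments or more whose interval bound nearest 1 was farthest from it; in every other list the 4 highest and 4 lowest measured members; 4 noncoding genes each way; the 10 protein-coding genes with the highest FPKM in hypoxia; and 5 genes each way with 0 fragments in a library. Named after their values were seen were MRPS6, SLC2A13, SLC2A14, ATP1B1, ALDOA, PFKFB4, MYC, CA9, NDRG1, VEGFA, SLC3A2, SLC38A2, AURKB, ID1, HAMP and AXIN2. Values of some list members are not reported here.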

Additional observations from a re-analysis of the deposited data

How the results depend on the processing

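No paired analysis was possible because each condition has 1 library, and for the same reason no library could be left out. Of the alternatives run, none turned the direction of a called value. The counts of genes higher and lower with oxamate, 813 and 696, were 722 and 802 with scaling by total fragments, 806 and 710 by the median of ratios, 768 and 738 without the filter on low values, 813 and 684 with a GC trend removed and 818 and 681 with a length trend removed. On log2(FPKM + 1) they were 324 and 187, and 491 and 307 where the whole interval had to pass 2-fold, all of 13739 measured genes. A minimum of 10 fragments gave 2079 and 1866 of 19323 genes, and a minimum of 200 gave 467 and 337 of 10565. Without genes that share exons they were 458 and 415 of 6919. Counts from different numbers of genes cannot be set against 813 and 696 directly. Counts within lists without genes that share exons also come from fewer members, whose number is not reported here. List medians moved as follows. On log2(FPKM + 1) they were 0.23 for glycolysis, 0.61 for HIF targets, 0.51 for ATF4 targets and -0.73 for coagulation and complement. Without genes that share exons they were 0.15 for glycolysis, 0.56 for HIF targets, -0.20 for osmolytes and 0.50 for cholesterol synthesis and its control. With a minimum of 200 fragments the median of HIF targets was 0.80. Scaling by total fragments placed the protein-coding median at -0.09. Among genes named in the text by the rule, under that scaling MTHFD2, SLC7A5, BNIP3L, RRAGC, PPP1R15B, UGDH and MALAT1 no longer passed and PKLR, PDIA4 and PDZK1 passed as lower. Genes named after their values were seen were not in that check, and SLC3A2 and ATP1B1 among them lie near the threshold. The cause of these moves was not tested. Depth limits the low genes: a floor of 3 fragments is 0.108 CPM in hypoxia and 0.120 CPM with oxamate, and ratios on under 20 fragments have wide intervals.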

Other observations

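Genes outside the protein-coding set also differed. Of 351 measured long intergenic noncoding genes, 57 were higher with oxamate and 37 lower, and of 509 antisense genes 58 were higher and 35 lower, beside 5.92% and 5.07% of all measured genes. UCA1, a long noncoding RNA known from bladder cancer, had 85, 359 and 2226 fragments in normoxia, hypoxia and hypoxia with oxamate and was 6.86-fold higher (6.13 to 7.69). PAX8-AS1, antisense to the gene of a thyroid and kidney factor, had 6, 41 and 495 fragments and was 13.4-fold higher (9.70 to 18.9). PCAT14 had 49, 245 and 30 fragments and was 7.38-fold lower (5.04 to 11.2), so its library in hypoxia alone stood above both others. MALAT1, an abundant nuclear RNA, was 2.03-fold higher (1.96 to 2.11), at the threshold, and did not pass with scaling by total fragments, on log2(FPKM + 1) or without the filter on low values. MEG3, an imprinted noncoding gene, was 2.26-fold lower. Counting by strand is not given in the sources used here, so fragments of an antisense gene and of its partner cannot be told apart.

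Some protein-coding values are uncertain because near-identical copies exist. BOLA2B, of a duplicated gene pair, had 17, 2 and 297 fragments, a ratio of 164 whose interval runs from 45.1 to 1363. U2AF1L5, a copy of a splicing factor gene, was 5.91-fold lower.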
